A study of Mus musculus with 7 samples.

Results

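Cells with a roof plate signature were picked out of single-cell RNA-seq libraries of the Wnt1-Cre lineage at E9.5 and E10.5. A cell was a member if it held at least 1 UMI (unique molecular identifier, 1 counted mRNA molecule) of Rspo1 and at least 1 of Rspo3, with 0 UMIs of Prrx1, a gene of mesenchymal neural crest, and 0 of Sox10, a gene of migrating and glial crest. At least 1000 detected genes and at most 10% mitochondrial UMIs were also required. The rule found 1734 cells among 52558 cells that passed the gene and mitochondrial limits in 6 libraries. The values of Rspo1, Rspo3, Prrx1 and Sox10 therefore chose the cells and are given without a test.

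The roof plate is the strip of neuroepithelium along the dorsal midline of the neural tube. It is known as a signalling centre that secretes BMP and Wnt ligands, patterns the adjoining dorsal progenitors and repels commissural axons, and at hindbrain levels it gives rise to the epithelium of the choroid plexus. Rspo1 and Rspo3 encode R-spondins, secreted proteins that bind Lgr receptors, neutralise the Rnf43 and Znrf3 ubiquitin ligases and so raise the response of a cell to Wnt ligands.

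The study profiled EGFP-positive cells, sorted from mouse embryos in which Wnt1-Cre had recombined a ROSA-EGFP reporter, to ask how loss of Tbx1, a T-box gene of the surrounding pharyngeal tissue, affects neural crest cells. Since Wnt1 itself is active in the dorsal neural tube, the sort also takes neural tube cells. Control embryos were Wnt1-Cre/+;ROSA-EGFPf/+, with 1 library at E9.5 and 2 at E10.5. The Tbx1 null group, so called in the sample titles, had 1 library at E9.5 and 2 at E10.5, and the study describes the embryos as Tbx1-/-, although the genotype field of these libraries reads Wnt1-Cre/+;Tbx1+/-;ROSA-EGFPf/+. The labels give the strain as Swiss-Webster and the study a mixed background of it, and each library was made from pooled embryos, so that p-values measure the spread between pools. At E9.5 the pharyngeal apparatus was dissected with the heart and the neighbouring neural tube, and at E10.5 arch 1 was left out, so stage, dissection and library batch cannot be told apart. Version 3.1 chemistry was used for the control libraries and for Tbx1 null replicate 2 at E10.5, and version 3 for the other Tbx1 null libraries.

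The 6 libraries held between 146254671 and 234844769 UMIs in all, of which the members held 2910439 to 9388731. Median UMIs per member cell lay between 13732 and 21121 and the median mitochondrial share between 2.06% and 4.64%. The cells with the highest doublet scores, which were kept, made up 0.319% and 0.804% of the E9.5 members and 5.05% to 10.1% of those of E10.5. Any pair of these libraries shared at most 44 cell barcodes. Transcripts of Tbx1 in the members numbered 11 and 10 UMIs in the E10.5 controls and 2 and 1 in the Tbx1 null libraries, a ratio of 14.2 with a counting interval of 4.24 to 74.3, and at E9.5 they numbered 3 in the control and 1 in the Tbx1 null library.

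Roof plate genes that the rule did not use were concentrated in these cells. Colec12 and Metrnl were given beforehand as markers of these cells, so their levels describe the cells and are no independent support. Levels were compared with those of dorsal progenitors, the 8479 cells of the same libraries with Sox2 and Pax3 and without Rspo1, Rspo3, Prrx1 and Sox10, and with 21684 mesenchymal crest cells with Prrx1 and Twist1. All levels below are UMIs summed over the cells of a population in a library, expressed as CPM (counts scaled to a common total) with the factors of the trimmed mean of M values (TMM), unless plain CPM is stated. Colec12 (ENSMUSG00000036103, chr18:9707595-9882644 in mm10), which encodes a scavenger receptor with a collectin domain, stood at 135 and 164 CPM in the E9.5 control and Tbx1 null libraries and at 389, 472, 500 and 371 CPM in the E10.5 libraries, listed as controls 1 and 2 and then Tbx1 null 1 and 2. In dorsal progenitors its highest level was 5.63 CPM. Metrnl, which encodes a secreted protein related to meteorin, reached 83.2 and 95.9 CPM at E9.5 and 176, 167, 171 and 132 CPM at E10.5.

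**Figure D1:**
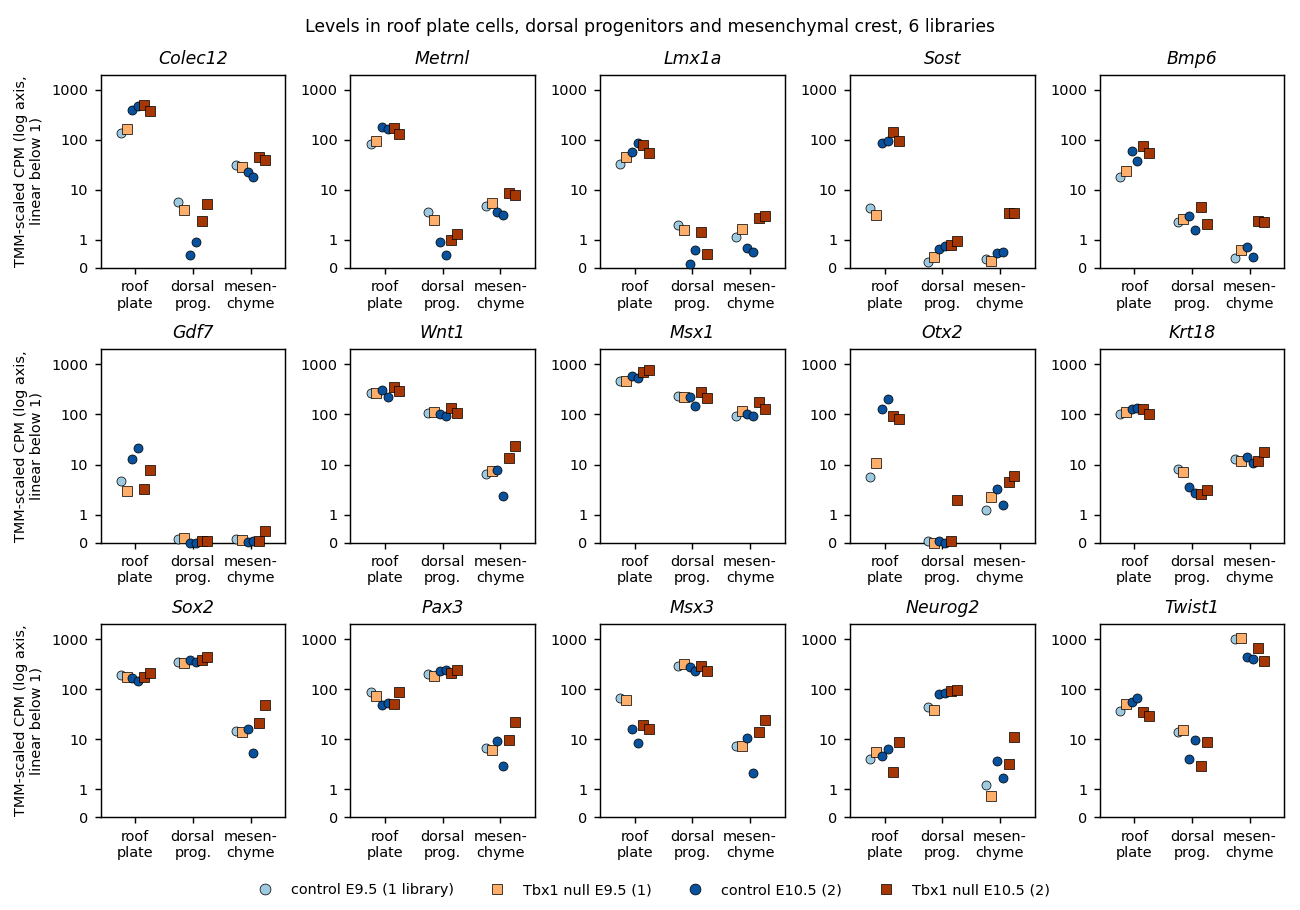
TMM-scaled CPM (vertical axes, logarithmic above 1 and linear below) of 15 genes in the Rspo1 and Rspo3 positive cells, dorsal progenitors and mesenchymal crest, each point a library at E9.5 or E10.5. Colec12, Metrnl, Lmx1a and Gdf7 lie above both other populations in the members, whereas Msx3 and Neurog2 lie lower than in dorsal progenitors.

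As these cells were chosen by a contrast with the others, the ratios that follow describe them and were not tested. The median over the 6 libraries of the log2 ratio to dorsal progenitors was 6.55 for Colec12, 6.13 for Metrnl and 5.13 for Lmx1a, the LIM homeodomain factor that specifies the roof plate. The ratio of Otx2, a homeodomain factor of the forebrain and midbrain and of choroid plexus epithelium, was 5.67 and spanned 2.65 to 7.67 over the libraries. Sost, which encodes an extracellular inhibitor of Wnt signalling, had a median of 5.67 and Bambi, a BMP pseudoreceptor, one of 4.35. Calb1, a calcium-binding protein, Anxa3, a membrane-binding annexin, and Krt18, a keratin, followed at 4.91, 4.78 and 4.75. Wls, the carrier that Wnt ligands need for secretion, had a ratio of 2.28, and Slit2, a repellent of commissural axons, one of 2.35. At the other end were Msx3, a homeobox gene of dorsal progenitors that is known to be missing from the roof plate, at -3.82, and the neurogenic genes Neurog2 and Dll1 at -3.40 and -3.21. Of 3119 genes with at least 50 CPM in the higher population, 43 (1.38%) were at least 2-fold higher in all 6 libraries and 41 (1.31%) at least 2-fold lower. All 3 measured roof plate list genes above that level were among the higher. Of 8 neurogenesis genes 6 were among the lower, with a median of -2.39 against -0.149 over all genes. A gene could pass the limit through its higher population alone, so these counts were partly set by the filter and only describe the cells.

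The same held cell by cell once each cell had been thinned to 5000 UMIs, so that depth was alike. Of 7 roof plate genes outside the rule's own 4 (Lmx1a, Lmx1b, Gdf7, Wnt1, Wnt3a, Bmp6 and Msx1), at least 3 were detected in 19.7% to 57.2% of members, against 1.81% to 5.68% of dorsal progenitors and 0.147% to 1.91% of mesenchymal cells. Colec12 was found in 37.1% to 71.4% of members, in 0.227% to 2.33% of dorsal progenitors and in 7.54% to 13.9% of mesenchymal cells. Lmx1a was found in 12.9% to 42.9% of members, against 0.0567% to 0.803%. Before thinning the median depths were 13732 to 21121 UMIs in members and 10426 to 16592 in dorsal progenitors. Wnt1, the ligand gene whose promoter drives the Cre, was detected in 59.2% to 75.3% of thinned members and in 29.3% to 36.6% of dorsal progenitors, and thus was shared more widely than Lmx1a. Sox2, which marks the neuroepithelium, had at least 1 UMI in 70.2% to 92.7% of members at full depth. The label of roof plate cells matched the roof plate list genes as summed over the members, but many single cells carried few of them. At least 3 of the 7 were found in only 19.7% and 27.2% of members in the E9.5 control and Tbx1 null libraries. Lmx1b was in 0.323% to 0.817% of E9.5 members and Gdf7 in 1.63% to 2.58%. Msx1, the most widely found, was in 81.9% to 94.1% of members but also in 44.3% to 62.3% of dorsal progenitors. Not all dorsal progenitor genes were rarer in E9.5 members. There Olig3 was in 49.3% to 57.4% of members and 49.9% to 55.5% of dorsal progenitors. Atoh1 was in 11.2% to 13.9% against 9.13% to 9.4%. Msx3 was rarer in E9.5 members, at 19.6% to 21.3% against 66.6% to 68.6%. At E10.5 Olig3 was in at most 24.7% of members and at least 52.9% of dorsal progenitors. Atoh1 was in at most 6.65% and at least 12.7%.

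The level of the signature at the edge of the rule varied between libraries. Members with exactly 1 UMI of each R-spondin numbered 99, and the medians over libraries of their plain CPM were 83.2 for Colec12 and 38.7 for Lmx1a. The 246 members with 3 to 5 R-spondin UMIs stood at 365 and 45.1, and the 1389 members with 6 or more at 440 and 67.5. Colec12 did not follow this order in every library, since in E10.5 control 2 it was 616 CPM in the members with 1 UMI of each and 523 CPM in those with 6 or more. Just outside, the 2053 cells with Rspo1 and no Rspo3 stood at 52.7 for Colec12 and 12.9 for Lmx1a, and the 846 cells with Rspo3 and no Rspo1 at 197 and 12.6. By contrast, 255 cells left out for a single Prrx1 UMI had 425 for Colec12 and 50.9 for Lmx1a, values near those of the members. Wnt1 was lower in them than in members with 6 or more R-spondin UMIs (176 against 324), as was Sox2 (133 against 182). The mesenchymal gene Pdgfra was higher (14.9 against 5.99).

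Markers of other cell types were summed as TMM-scaled CPM in each library. Mesenchymal crest markers summed to 102 to 201 CPM in members, against 29.6 to 62.5 in dorsal progenitors and 1703 to 2777 in mesenchyme, where the list holds Prrx1, which the rule set to 0 in members and which chose the mesenchyme together with Twist1. Migrating and glial crest markers, among them Sox10, which the rule set to 0, summed to 371 to 610 CPM in members, 649 to 999 in dorsal progenitors and 51.9 to 165 in mesenchyme. Twist1 had at least 1 UMI in 34.7% to 41.3% of members at full depth and in 12.9% to 21.9% after thinning. Neuronal markers summed to 150 to 503 CPM in members and 240 to 1703 in dorsal progenitors. The surface epithelium list reached 124 to 190 CPM, carried by the keratins Krt8 and Krt18, with Cdh1 at 0. Blood and endothelial markers stayed at 8.25 CPM or less, with Ptprc, Alas2 and Cdh5 at 0.

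The share of kept cells that were members overlapped between the groups. It was 3.63% of 8612 cells in the E9.5 control (exact binomial 95% interval 3.25 to 4.05, counting error only) and 3.53% of 10577 in the E9.5 Tbx1 null library. At E10.5 it was 2.98% and 1.93% in the controls and 4.83% and 2.95% in the Tbx1 null libraries. The Tbx1 null mean was higher by 1.44 percentage points, with an exact permutation p of 0.667, two-sided, where the design can give no p below 0.333. The difference was 0.50 to 2.38 with 1 library left out. Between the stages the means differed by -0.407 percentage points (exact permutation p = 0.667, smallest possible 0.133), by 0.00732 without E10.5 control 2 and by 0.542 when cells were thinned before the rule. Among cells with Sox2 and without Prrx1 and Sox10, a smaller denominator, the genotype difference was -0.749 percentage points. There members made up 12.7% and 14.9% at E9.5 and 6.25% to 11.8% at E10.5, so that the stages did not overlap, with a difference of -5.16 percentage points and an exact permutation p of 0.133, the smallest the design can give. In bulk sums of this kind, fewer cells of a kind within the members and less RNA per cell cannot be told apart.

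From E9.5 to E10.5, 4 of 7 roof plate genes rose, as did 6 of 8 genes of choroid plexus and ependyma, 7 of 15 of midline guidance and matrix and 5 of 12 imprinted growth genes, while 9 of 11 genes of glycolysis and hypoxia and 7 of 12 S phase genes fell. Many of these calls needed both E9.5 libraries, as given with each group. Over 6 libraries with genotype as a term, edgeR's quasi-likelihood test called 1553 of 12597 genes (12.3%) at an adjusted p under 0.05, of which 839 (6.66%) were higher at E10.5 and 714 (5.67%) lower. At an unadjusted p under 0.05 there were 29.9% of the genes. The stages did not overlap for 24.1% of all genes in the direction of a higher and for 16.8% in that of a lower E10.5 level. The 2 libraries at E9.5 carry this contrast, and the number of calls was 143 without the E9.5 control and 465 without the E9.5 Tbx1 null library. It was 780 and 850 without E10.5 control 1 and 2, and 2834 without E10.5 Tbx1 null replicate 1. Scaling mattered as well, since the median log2 ratio over all genes was 0.363 in plain CPM, 0.114 in TMM-scaled CPM and 0.0633 in the fit, and the changes below are those of the fit.

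Of the 7 roof plate genes, 4 rose and none fell, with a median log2 change of 0.80 against 0.0633 over all genes. Bmp6, a BMP ligand of the dorsal midline, went from 18.1 and 24.0 CPM at E9.5 to 59.9, 36.9, 75.5 and 53.3 CPM at E10.5. All E10.5 libraries lay above both E9.5 libraries, and the log2 change was 1.38 ± 0.25 (SE, adjusted p = 0.00409). Lmx1b, the paralogue of Lmx1a, went from 1.87 and 1.73 CPM to between 8.35 and 14.7 CPM (2.47 ± 0.36, adjusted p = 0.000968). Lmx1a rose from 32.2 and 45.2 CPM to 57.3, 85.7, 80.2 and 54.9 CPM (0.80 ± 0.24, adjusted p = 0.0441). Gdf7, a BMP family ligand needed for dorsal interneurons, rose by 1.34 ± 0.40, although its levels at the stages overlapped. After thinning to 5000 UMIs Lmx1a (adjusted p = 0.0887) and Gdf7 (0.171) were not called, nor was Lmx1a with DESeq2 size factors (0.0507) or Gdf7 with DESeq2 (0.050). Without the E9.5 control the adjusted p was 0.438 for Lmx1a, 0.515 for Gdf7 and 0.0932 for Bmp6, and without the E9.5 Tbx1 null library it was 0.120, 0.0797 and 0.0663. Without E10.5 control 1 it was 0.0712 for Lmx1a and 0.0708 for Gdf7, without E10.5 control 2 it was 0.103 and 0.105, and without E10.5 Tbx1 null replicate 2 it was 0.0855 for Gdf7. Msx1, Wnt1 and Wnt3a were not called, with changes of 0.40 ± 0.20, 0.08 ± 0.21 and -0.04 ± 0.22. Colec12 rose by 1.49 ± 0.21 (adjusted p = 0.000920, and 0.0511 without the E9.5 control), and every E10.5 library exceeded both E9.5 libraries. Metrnl rose by 0.80 ± 0.20 (adjusted p = 0.0220), with an adjusted p of 0.312 and 0.103 without the E9.5 control and Tbx1 null libraries, and of 0.0754 and 0.0528 without E10.5 controls 1 and 2.

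**Figure D2:**
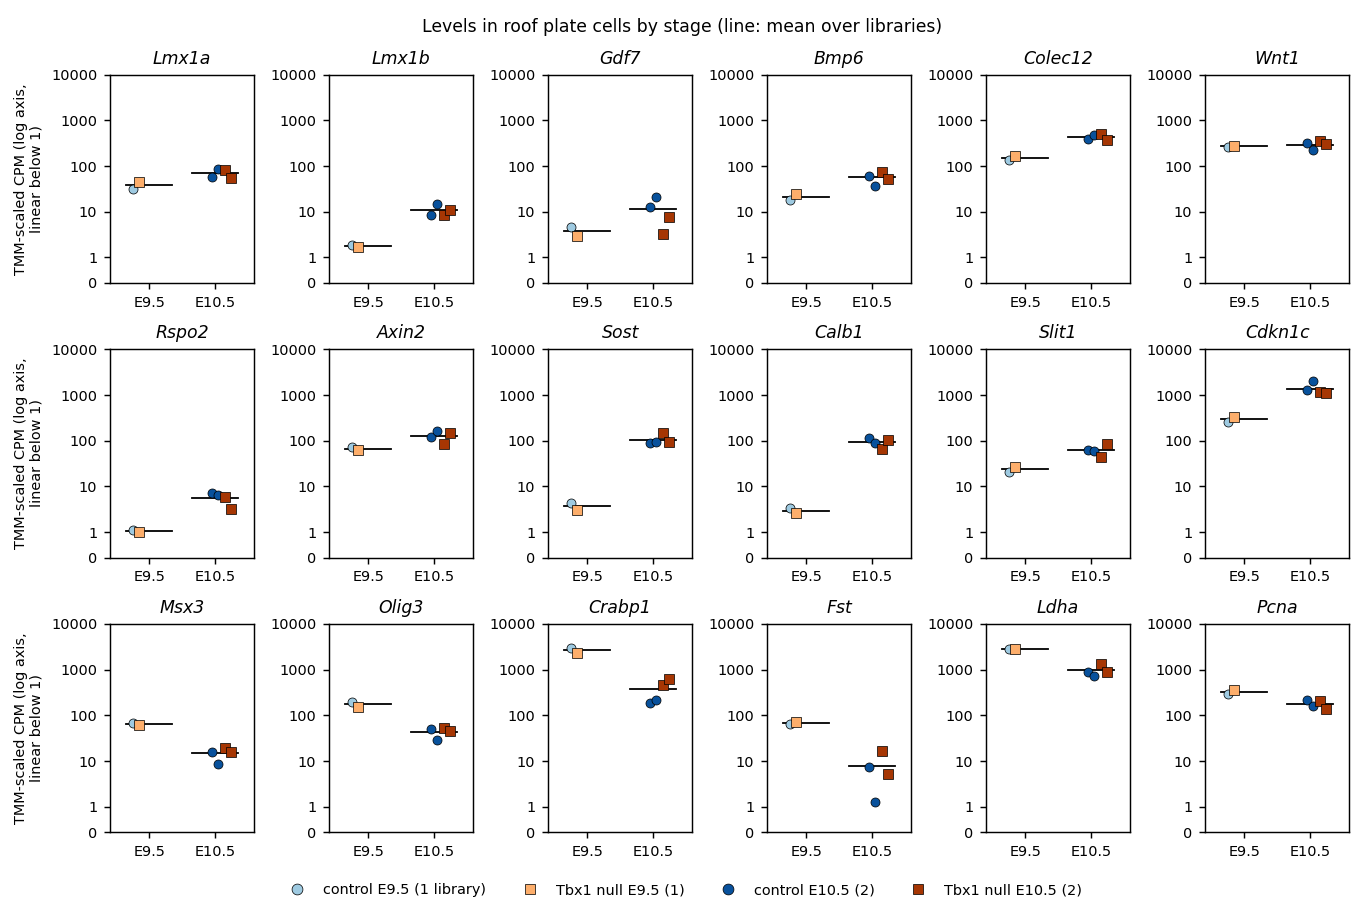
TMM-scaled CPM (vertical axes) of 18 genes in the Rspo1 and Rspo3 positive cells of the 2 libraries at E9.5 and the 4 at E10.5, with control and Tbx1 null libraries marked and a line at each stage mean. Colec12, Bmp6, Sost and Cdkn1c are higher at E10.5 in every library, whereas Wnt1 overlaps between the stages.

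The R-spondin genes that chose the cells stood at 360 and 434 CPM at E9.5 and at 664, 506, 659 and 461 CPM at E10.5 for Rspo1 (chr4:124986430-125009099, mm10), and at 249, 209 and then 286, 380, 250 and 330 CPM for Rspo3 (chr10:29452416-29535867). Rspo2, a related R-spondin that the rule did not use, rose from 1.12 and 1.04 CPM to between 3.23 and 7.34 CPM (2.34 ± 0.45, adjusted p = 0.00586). Of the 4 tested genes in the list of R-spondins and receptors, it was the only one called, and it was not called without the E9.5 control (adjusted p = 0.129).

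BMP ligand genes rose in most cases. Of 6 tested BMP ligands 5 rose, Bmp6 and Gdf7 among them, and DESeq2 called 2. Bmp4, Bmp7 and Gdf11 rose by 1.18 ± 0.34, 0.80 ± 0.24 and 0.75 ± 0.23. With either E9.5 library left out, none of the 5 was called. Among 10 BMP targets 1 rose and 2 fell, one of the latter Id1, an inhibitor of basic helix-loop-helix factors, by 0.72 ± 0.21 on the log2 scale. With either E9.5 library left out, 1 fall and no rise was called among the 10. Fst, which encodes the activin and BMP antagonist follistatin, fell from 65.8 and 71.4 CPM to 7.54, 1.27, 16.7 and 5.2 CPM (-3.18 ± 0.41, adjusted p = 0.000503), and the BMP and Wnt inhibitor gene Sostdc1 rose by 3.25 ± 0.36. Of 8 Wnt ligands, Wnt9a (1.28 ± 0.26) and Wnt5a (1.75 ± 0.39) rose and the others were not called. Without the E9.5 control neither was called (adjusted p = 0.0981 and 0.269), and without the E9.5 Tbx1 null library Wnt5a alone was.

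Sost (chromosome 11), which was not in the list of Wnt inhibitors, went from 4.30 and 3.11 CPM at E9.5 to 88.1, 96.2, 145 and 95.1 CPM at E10.5, a rise seen in each library (4.78 ± 0.32, adjusted p = 2.7e-06), and it was called without either E9.5 library (0.00013 and 0.000133). Of 7 tested Wnt inhibitors in the list 3 rose, among them Dkk2 and Dkk3 of the Dickkopf family by 1.69 ± 0.43 and 1.51 ± 0.30, and 1 fell, Sfrp2, a secreted Frizzled-related protein, by 1.85 ± 0.28 on the log2 scale. Without the E9.5 control 0 of the 7 were called, and without the E9.5 Tbx1 null library Sfrp2 alone was. Of 7 Wnt feedback and target genes, Axin2 rose by 0.87 ± 0.24, whereas Sp5 (-2.52 ± 0.35) and Lef1 (-0.71 ± 0.21) fell. None of the 7 was called without the E9.5 control and only Sp5 without the E9.5 Tbx1 null library.

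Several dorsal progenitor genes fell in the members. Msx3 fell from 67.9 and 61.8 CPM to 16.1, 8.60, 19.3 and 15.8 CPM, Olig3, a factor of dorsal interneuron progenitors, by 2.04 ± 0.23 and Atoh1, the factor of the progenitors next to the roof plate, by 1.30 ± 0.30 on the log2 scale. Msx3 and Olig3 were also called without either E9.5 library, and Atoh1 was not called without the E9.5 control (adjusted p = 0.348). In the list of roof plate and dorsal transcription factors 4 of 14 genes rose, Zic4 among them by 1.25 ± 0.21, and these 3 fell, with a median of 0.39. Of the 4 rises 1 was called without the E9.5 control and 1 without the E9.5 Tbx1 null library. Hes5 and Lfng, both of the Notch pathway, were the only called genes among 12 of that pathway, and fell by 1.11 ± 0.29 and 1.19 ± 0.32 on the log2 scale. Neither was called without the E9.5 control, and Hes5 was not without the E9.5 Tbx1 null library.

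Neurogenesis and neuronal genes gave mixed counts. Of 10 neurogenesis genes 5 rose and 1 fell, and of 8 neuronal markers 4 rose. The 8 neuronal markers summed to 150 and 156 CPM at E9.5 and to 172, 479, 222 and 503 CPM at E10.5, so that the second replicate of each genotype was high. With the cells of highest doublet score removed none of the 8 was called, and 0 of the 10 neurogenesis genes rose and 2 fell. Without either E9.5 library no neuronal marker and no rise of a neurogenesis gene was called. Among markers of other cell types, Twist2 and Col3a1 rose of 9 tested for mesenchymal crest, and Epcam and Krt8 of 3 for surface epithelium. Of 5 tested for migrating and glial crest 2 rose, and 0 of 4 with the cells of highest doublet score removed. Of 3 tested endothelial markers 1 fell. As TMM-scaled CPM the surface epithelium list summed to 124 and 143 at E9.5 and to 158 to 190 at E10.5, without overlap. The sums of the mesenchymal list overlapped (109 and 140 against 102 to 201). Those of the migrating and glial crest list did as well (438 and 473 against 371 to 610). The mesenchymal and surface epithelium lists had no call without the E9.5 control, and 3 and 1 without the E9.5 Tbx1 null library. When Sox2 was required of members, no mesenchymal marker rose and 1 fell. Their part in the other stage changes was not tested.

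Of 12 S phase genes 7 fell and none rose, with a median of -0.82, and DESeq2 called 8. Pcna, the sliding clamp of DNA replication, fell from 298 and 357 CPM to 220, 163, 203 and 139 CPM (-0.90 ± 0.21, adjusted p = 0.0167), and Rrm2, a subunit of ribonucleotide reductase, by 1.14 ± 0.27 on the log2 scale. Without the E9.5 control 0 of the 12 were called and without the E9.5 Tbx1 null library 3. Of 13 genes of G2 and M phase 2 fell and none rose, with 7 at an unadjusted p under 0.05, a median of -0.50 and 4 falls called by DESeq2, and without either E9.5 library 0 were called, by edgeR. Within that list Mki67 and Top2a, markers of cycling cells, were not called (-0.02 ± 0.21 and 0.08 ± 0.19). The share of thinned members with a UMI of either was 72.6% and 71.9% in the E9.5 libraries. At E10.5 it was 57.7%, 55.6%, 62.9% and 67.5%, lower in every library. In dorsal progenitors the share was also lower in every E10.5 library, at 79.3% and 78.8% and then 75.7%, 71.3%, 75.8% and 68.0%. Of 11 tested cell cycle inhibitors 2 rose and 1 fell. Cdkn1c, the CDK inhibitor p57, rose from 257 and 336 CPM to 1266, 1980, 1146 and 1095 CPM (2.12 ± 0.27, adjusted p = 0.000393) and Cdkn1a, the inhibitor p21, by 3.62 ± 0.45, and both were also called without either E9.5 library. Gadd45a, a gene of growth arrest and DNA damage, fell by 1.54 ± 0.32 on the log2 scale and was not called without the E9.5 control.

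Of 11 genes of glycolysis and hypoxia 9 fell, the largest share of any list, with a median of -1.28. Ldha, lactate dehydrogenase A, went from 2818 and 2903 CPM to 876, 743, 1369 and 882 CPM (-1.64 ± 0.21, adjusted p = 0.000507). Bnip3, a hypoxia-induced mitochondrial gene, fell by 2.34 ± 0.21 on the log2 scale. Vegfa, an angiogenic ligand also induced by hypoxia, rose by 0.90 ± 0.24, a call that was lost without either E9.5 library and after thinning. Of the 11, 4 remained lower without the E9.5 control and 8 without the E9.5 Tbx1 null library. Among 8 genes of the dissociation stress list edgeR and DESeq2 called 0, with 3 at an unadjusted p under 0.05.

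Retinoid genes gave calls in both directions. Crabp1, a cytoplasmic retinoic acid binding protein, stood at 3000 and 2371 CPM at E9.5 and at 190, 222, 475 and 635 CPM at E10.5 (-3.12 ± 0.31, adjusted p = 9.02e-05), and Crabp2 fell by 1.59 ± 0.22 on the log2 scale. Aldh1a2, the main synthesising enzyme for retinoic acid in the embryo, rose from 12.9 and 5.35 CPM to 31.9, 34.4, 24.5 and 60.8 CPM (2.01 ± 0.41, adjusted p = 0.00778). In all, 2 of the 9 retinoid genes rose and 3 fell, against 1 and 1 without the E9.5 control and 0 and 2 without the E9.5 Tbx1 null library, where Aldh1a2 was not called (adjusted p = 0.151).

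Midline guidance and matrix genes rose in 7 of 15 cases and fell in none. Slit1, Slit2 and Slit3, ligands of Robo receptors, rose by 1.35 ± 0.26, 0.83 ± 0.19 and 1.11 ± 0.23, and Col4a1, a basement membrane collagen, by 1.35 ± 0.24. Without the E9.5 control 1 of the 15 was called and without the E9.5 Tbx1 null library 2. Of 12 imprinted growth genes 5 rose. Igf2, the fetal growth factor, went from 4.49 and 2.59 CPM to 47.4, 97.8, 19.9 and 32.1 CPM (3.64 ± 0.38, adjusted p = 0.000123), while H19, Dlk1 and Plagl1 rose by 3.29 ± 0.37, 2.36 ± 0.35 and 1.34 ± 0.21, and Cdkn1c was the other gene called. Their number was 5 without the E9.5 Tbx1 null library and 4 without the E9.5 control. Outside the lists, Calb1 rose by 4.92 ± 0.31. Among the genes with large falls were Cck, the cholecystokinin precursor (-3.50 ± 0.30), the S100 calcium-binding proteins S100a6 (-2.99 ± 0.30) and S100a10 (-2.56 ± 0.29) and Prtg, an immunoglobulin family receptor of the early neural tube (-2.53 ± 0.20).

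Genes of axial position were called in both directions. Otx2 (chr14:48657677-48673819, mm10) went from 5.61 and 10.5 CPM to 127, 203, 95.2 and 83.0 CPM (3.81 ± 0.37, adjusted p = 7.43e-05). After thinning it was found in 2.26% and 2.45% of members at E9.5 and in 31.7%, 43.4%, 24.2% and 20.2% at E10.5, while in dorsal progenitors it did not exceed 1.93 CPM. It was the only gene of 6 in the midbrain and isthmus list to rise, and 3 fell, En1, En2 and Pax8, transcription factor genes of the midbrain and isthmus, with a list median of -1.62. Those 3 were at 2.99 CPM or less in each library, and without either E9.5 library none of those tested was called. Hox genes of paralogue groups 4 to 6, which mark the caudal hindbrain and cervical cord, rose in 6 of 9 cases and groups 1 to 3 in 0 of 7, of which Hoxb1 and Hoxb2 fell. Hoxb6 and Hoxb8 had no UMI in either E9.5 library, so that their E10.5 levels were at least 69.4-fold and 64.9-fold higher when set against 3 UMIs over the E9.5 members. The rise was not particular to members. In the comparison with dorsal progenitors below, 0 of 9 genes of groups 4 to 6 rose more in members and 1 had a lower change (median -0.0366). Hoxb8 was in at most 0.0861% of thinned dorsal progenitors at E9.5 and in 4.76% to 22.9% at E10.5. In members it went from 0% to between 2.61% and 16.3%. Of the 6 calls in groups 4 to 6, 4 were made without the E9.5 control and 3 without the E9.5 Tbx1 null library, and of the 2 falls in groups 1 to 3 these were 0 and 1.

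In 3 of the 4 libraries at E10.5 most cells with Otx2 lacked Hox genes of groups 4 to 6, and in Tbx1 null replicate 2, by contrast, 39 of 58 had them. Hox groups 1 to 3 were found in 196 of 219, 176 of 198, 404 of 426 and 202 of 205 members and so do not divide them. At E10.5 the cells with Otx2 and none of Hox groups 4 to 6 numbered 72, 84, 129 and 19 per library, those with the Hox genes and without Otx2 90, 62, 162 and 138, those with both 16, 18, 38 and 39, and those with neither 41, 34, 97 and 9. Tbx1 null replicate 2 thus held few cells with Otx2 alone. At E9.5 most members had neither, 191 of 313 and 212 of 373, and 14 and 26 had Otx2 alone. These classes were counted at full depth, without thinning, and so were the cells with Ttr, Deup1 or Ccno below. Median depth of members differed between libraries, from 13732 UMIs in E10.5 control 2 to 21121 in E10.5 Tbx1 null replicate 2. The classes were drawn after the values had been seen and are described without a test.

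**Figure D3:**
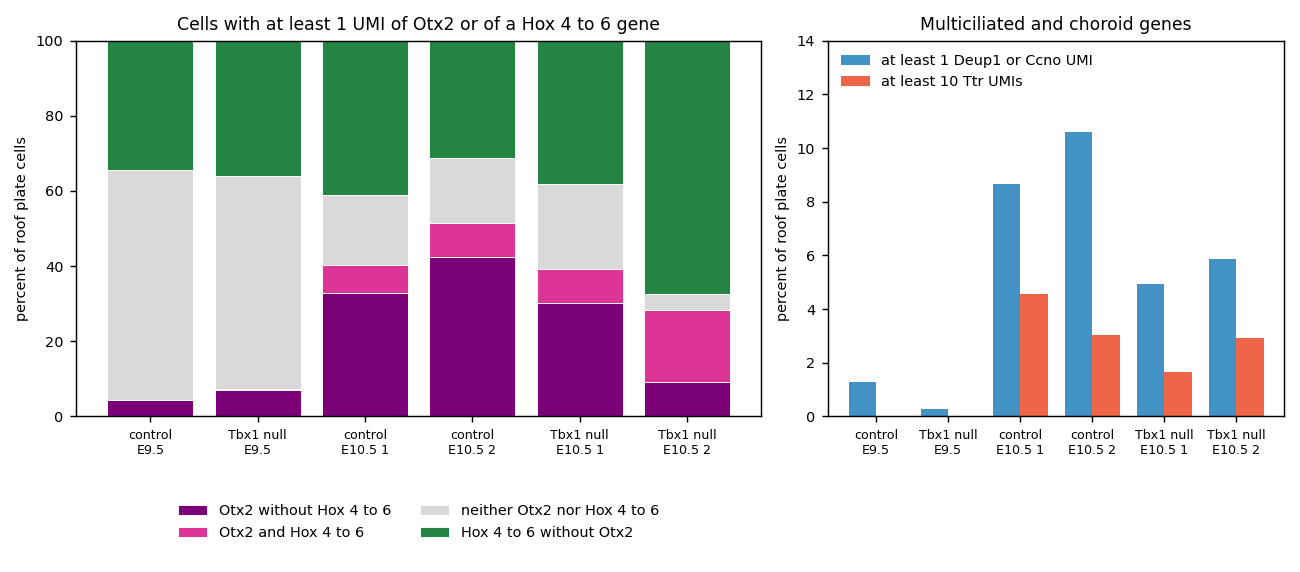
Left, share of the Rspo1 and Rspo3 positive cells (vertical axis, percent) of each library with UMIs of Otx2 only, both, Hox paralogue groups 4 to 6 only or neither. Right, share with at least 1 UMI of Deup1 or Ccno and with at least 10 UMIs of Ttr. The latter was 0 at E9.5 in both libraries. Both panels are at full depth, without thinning.

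Of the 8 tested genes of choroid plexus and ependyma 6 rose, Otx2 among them, with a median log2 change of 3.65, or 3.05 with the genes without an E9.5 UMI at their lower bound. Ttr (chr18:20665280-20674321, mm10), the thyroid hormone carrier secreted by choroid plexus epithelium, had 0 UMIs in the members at E9.5 and 206, 161, 31.3 and 571 CPM at E10.5, at least 761-fold higher over the members of the stage. Few cells carried it. The 10 cells with the most Ttr in each library held 1030 of 1040, 506 of 507, 340 of 345 and 3162 of 3181 UMIs. Cells with at least 10 Ttr UMIs numbered 10, 6, 7 and 6, and all had Otx2. Of these cells 0, 0, 1 and 5 also had Hox genes of groups 4 to 6. In Tbx1 null replicate 2 Ttr was also at 36.7 CPM in dorsal progenitors and 50.6 CPM in mesenchyme, and in control 1 at 28.2 CPM in mesenchyme, while it did not exceed 2.36 CPM in those populations of the other 2 E10.5 libraries. Foxj1, the master factor of motile cilia, rose by 3.49 ± 0.35, and Clic6, a chloride channel protein of choroid epithelium, was at 0 at E9.5 and at least 47.8-fold higher at E10.5. Of the 6 calls in the list, 4 were made without the E9.5 control and 4 without the E9.5 Tbx1 null library.

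A small class expressed genes of multiciliated cell differentiation. Deup1 (chr9:15559864-15627933, mm10), a component of the deuterosomes that multiply centrioles, had 0 UMIs at E9.5 and rose at least 31.8-fold. Cells with Deup1 or Ccno, a cyclin-like gene of the same process, numbered 4 and 1 in the E9.5 libraries, whereas E10.5 had 19, 21, 21 and 12, of which 19, 21, 19 and 10 had Otx2. In plain CPM, Foxj1 in these E10.5 cells was 319, 389, 233 and 416, against 3.14, 3.89, 3.71 and 5.95 in the other members. Cdkn1c was 7607, 8849, 8051 and 6429 CPM, against 700, 1243, 965 and 1005. Colec12 was 1308, 1308, 1449 and 1019 CPM, against 328, 403, 538 and 412. In every library the class lay above the rest for these genes. Mki67, in contrast, was 83.0, 49.8, 55.7 and 59.9 CPM in the class and 205, 262, 143 and 175 CPM in the rest, and Wnt1 was likewise lower in the class, at 111, 103, 127 and 270 CPM against 368, 255, 423 and 361 CPM.

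The Otx2 class held 17, 17, 15 and 3 of the cells with Deup1 or Ccno and differed from the Hox class in the same direction. Colec12 was 727, 742, 951 and 676 CPM in cells with Otx2 alone and 261, 311, 450 and 305 CPM in cells with Hox groups 4 to 6 alone. Cdkn1c was 2935, 3611, 3082 and 2427 CPM, against 315, 540, 329 and 475. Without the cells with Deup1 or Ccno, the Otx2 class stood at 497, 624, 847 and 571 CPM for Colec12 and at 1305, 2384, 2187 and 832 CPM for Cdkn1c, still above the Hox class in each library. Wnt1 ran the other way, at 237, 191, 256 and 255 CPM in the Otx2 class and 468, 379, 529 and 425 CPM in the Hox class. Lmx1a did not separate the classes, at 71.4, 103, 93.2 and 79.7 CPM against 71.4, 105, 109 and 68.6 CPM.

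**Figure D4:**
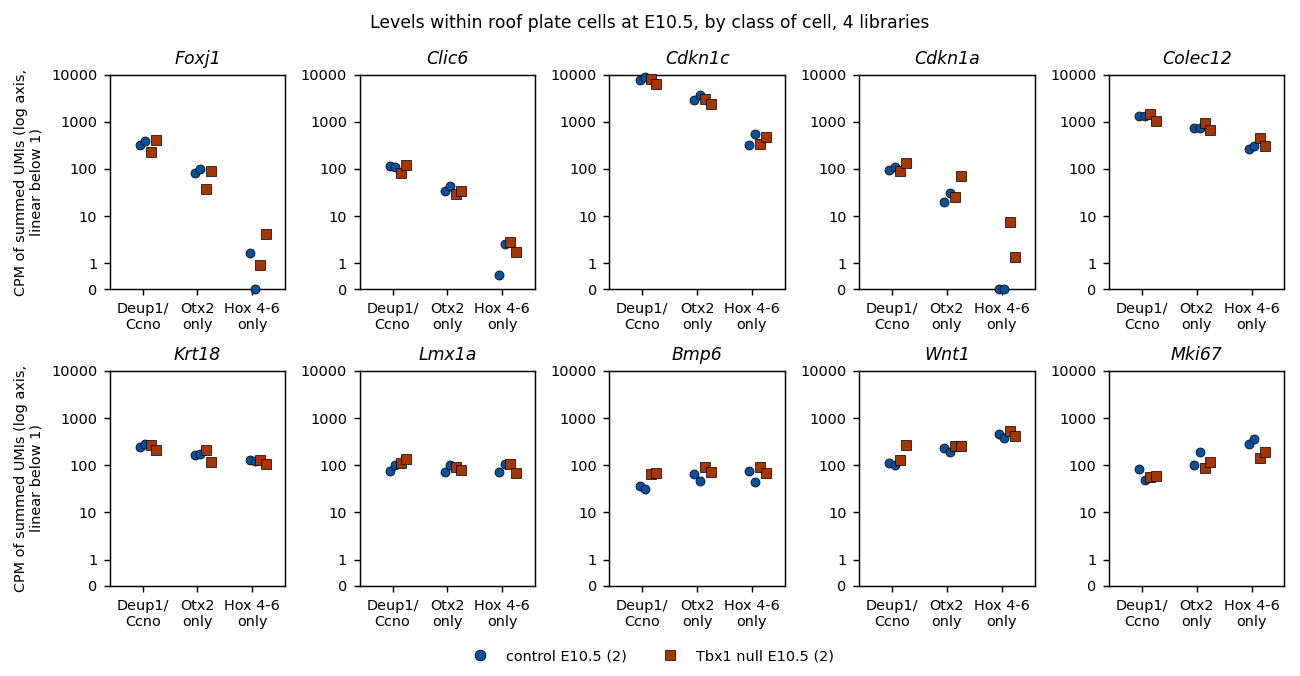
Plain CPM (vertical axes) of 10 genes at E10.5 in members with Deup1 or Ccno, with Otx2 only and with Hox groups 4 to 6 only, each point a library. Some cells with Deup1 or Ccno also belong to the Otx2 class. Foxj1 and Cdkn1c are highest in the Deup1 or Ccno class, and Wnt1 is highest in the Hox class in each of the 4 libraries.

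The stage change was then compared with that of dorsal progenitors by an interaction term with the library as a block. It differed for 1742 of 13150 genes (13.2%), 815 (6.2%) towards a larger rise in members and 927 (7.05%) towards a lower one, and 26.8% had an unadjusted p under 0.05. In dorsal progenitors alone 9.99% of genes were called between the stages. It differed for 445 genes without the E9.5 control and for 654 without the E9.5 Tbx1 null library. Of the 7 roof plate genes 3 had a larger change in members, namely Lmx1a (2.11 ± 0.48), Bmp6 (1.22 ± 0.24) and Msx1 (0.56 ± 0.12). The differences of Metrnl and Colec12 were 2.46 ± 0.29 and 2.49 ± 0.59 in the same direction. Fabp3, a fatty acid binding protein, and Sost rose by 3.85 ± 0.38 and 3.45 ± 0.70 more in members than in dorsal progenitors. Lmx1a, Metrnl, Colec12 and Sost averaged only 1.05, 1.66, 3.12 and 0.646 CPM in dorsal progenitors, so the sizes of their differences are uncertain. For Lmx1a, Metrnl and Colec12 the difference exceeded the rise in members given above, and the rest lay in dorsal progenitors. The difference was not called without the E9.5 control for Lmx1a (adjusted p = 0.250), Bmp6 (0.0900), Msx1 (0.0845) or Colec12 (0.282), and without the E9.5 Tbx1 null library it was not called for Msx1 (0.0654), Colec12 (0.0519) or Sost (0.119). For Car4, a carbonic anhydrase (4.24 ± 0.39), the difference came from a smaller fall, since its level was 22.8 and 18.8 CPM at E9.5 and 3.82 to 10.1 CPM at E10.5 in members.

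In the other direction, Msx3 (-1.77 ± 0.13), Olig3 (-1.76 ± 0.14) and Atoh1 (-2.06 ± 0.22) fell in members relative to their course in dorsal progenitors, where Olig3 was 230 and 189 CPM at E9.5 and 174 to 216 CPM at E10.5. Of 12 Notch genes 8 had a lower stage change in members, Hes5 among them (-1.51 ± 0.18), and 2 a higher one. Of 12 imprinted genes 8 had a higher stage change in members and 1 a lower one.

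Between Tbx1 null and control members at E10.5 few genes were called, with 2 libraries in each group. The test called 13 of 11643 genes (0.112%), 2 higher (0.0172%) and 11 lower (0.0945%) in Tbx1 null libraries, with 1091 genes (9.37%) at an unadjusted p under 0.05. Leaving out control 1, control 2, Tbx1 null replicate 1 or Tbx1 null replicate 2 gave 149, 47, 286 and 463 calls, each from a group of 1 library whose spread was taken from the other. In dorsal progenitors of the same libraries edgeR called 0 of 13938 genes (0%), with 923 at an unadjusted p under 0.05. The 13 calls were a glutathione peroxidase and Crabp1, both higher, and 11 lower genes. Among the latter were Hmx1, which few cells carried, and Gm42418 and AY036118, which overlap ribosomal repeats, as set out next.

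Gpx3 (chr11:54902453-54910377, mm10), a secreted glutathione peroxidase, stood at 28.4 and 22.6 CPM in controls and at 98.9 and 105 CPM in Tbx1 null members. The groups did not overlap, as for 18.3% of all genes in this direction and 23.7% in the other, and the log2 difference was 2.04 ± 0.24 (adjusted p = 0.00538). It was 20.8 and 24.0 against 64.0 and 58.0 CPM in dorsal progenitors and 12.6 and 12.5 against 42.2 and 59.2 CPM in mesenchyme, so the same direction appeared in all 3 populations of these libraries. At E9.5, with 1 library each, Gpx3 was 110 CPM in the control and 76.3 CPM in the Tbx1 null members, the opposite order, and with all 6 libraries in the fit the difference was 1.16 with an adjusted p of 0.649. Crabp1 was 190 and 222 CPM in controls and 475 and 635 CPM in Tbx1 null members (1.48 ± 0.24, adjusted p = 0.0468). It was no longer called in 5 alternatives, among them those without control 1 and without control 2. Another was the fit with the cells of highest doublet score removed (adjusted p = 0.157).

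**Figure D5:**
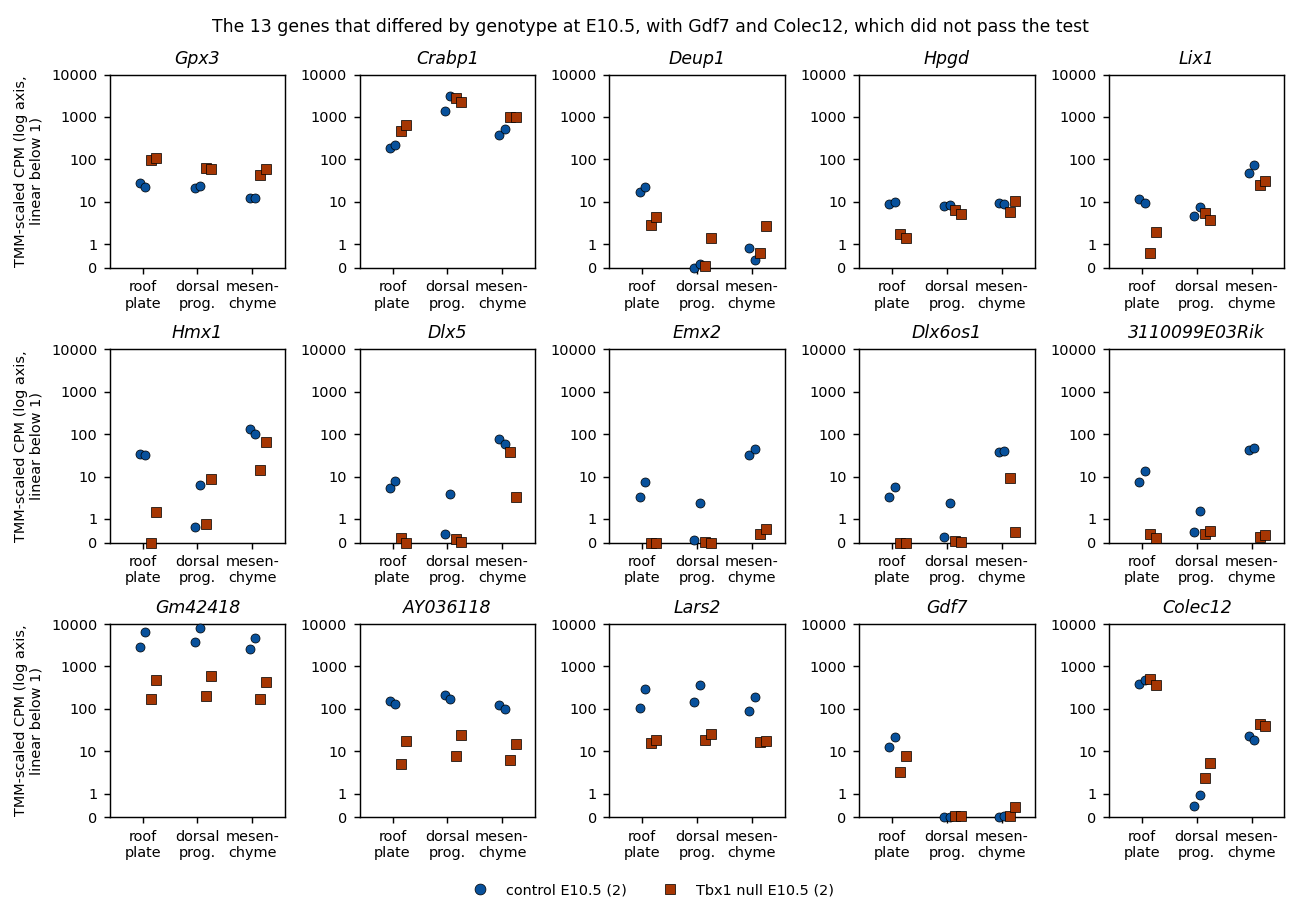
TMM-scaled CPM (vertical axes) at E10.5 of the 13 genes called between Tbx1 null and control members, with Gdf7 and Colec12, in 3 populations, each point a library. Gpx3 is higher and Gm42418 lower in Tbx1 null libraries in all 3 populations, whereas Colec12 overlaps between the genotypes in the members.

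Hmx1 (chr5:35389108-35399730, mm10), a homeobox gene of cranial mesenchyme and sensory ganglia, was 33.1 and 32.8 CPM in control members and 0 and 1.43 CPM in Tbx1 null members (-5.90 ± 0.66, adjusted p = 0.00538, and 0.622 with DESeq2). All 167 and 103 Hmx1 UMIs of the controls lay in 6 and 9 cells. In plain CPM those cells had 22.7 and 8.67 for Colec12, 0 and 4.34 for Lmx1a and 0 and 13 for Sox2, against 534 and 273 for Twist1 and 363 and 204 for Col3a1, a fibrillar collagen of mesenchyme. They met the rule and lacked most of the roof plate signature. The 8 Hmx1 cells of Tbx1 null replicate 2 differed from them, with 424 CPM of Colec12 and 51.9 CPM of Lmx1a. Dlx5, a homeobox gene of pharyngeal arch mesenchyme, Dlx6os1, a transcript of the same locus, and the homeobox gene Emx2 were also called lower, Dlx5 at 5.36 and 7.64 against 0.182 and 0 CPM, and Emx2 and Dlx6os1 with 0 UMIs in both Tbx1 null libraries, at least 27.0-fold and 23.7-fold lower. Of 8 mesenchymal crest markers tested 1 was called lower, 7 had an unadjusted p under 0.05 and DESeq2 called 3. The part of these cells in the other calls was not tested.

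When members were required to hold at least 1 Sox2 UMI, a choice made after the data had been seen, 11 genes were called, of which 6 were among the 13. Deup1, at 17.1 and 22.6 CPM in controls and 2.81 and 4.30 CPM in Tbx1 null members (-2.45 ± 0.33, adjusted p = 0.0125), differed by -1.87 in that fit, with an adjusted p of 0.211. Lix1 was 11.5 and 9.24 CPM in controls and 0.636 and 1.97 CPM in Tbx1 null members (-3.09 ± 0.50, adjusted p = 0.0468), and 0.702 with the Sox2 requirement. The long intergenic non-coding RNA 3110099E03Rik was 7.34 and 13.4 CPM in controls and 0.363 and 0.179 CPM in Tbx1 null members, and 41.6 and 47.1 against 0.246 and 0.305 CPM in mesenchyme. Hpgd, a prostaglandin-degrading enzyme, was 8.93 and 9.87 against 1.73 and 1.43 CPM.

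Gm42418, AY036118 and Lars2 fell in Tbx1 null members, and Gm42418 and AY036118 overlap ribosomal RNA repeats, so their reads cannot be assigned with certainty. Gm42418 was 2885 and 6529 CPM in controls and 175 and 470 CPM in Tbx1 null members (-3.81 ± 0.47, adjusted p = 0.00688). In dorsal progenitors it was 3863 and 8198 against 201 and 610 CPM, and in mesenchyme 2518 and 4587 against 168 and 421 CPM. All 3 populations thus showed the same direction at this stage. At E9.5 it ran the other way, 481 CPM in the control and 1958 CPM in the Tbx1 null library. AY036118 and Lars2, a mitochondrial leucyl-tRNA synthetase, differed by -3.68 ± 0.44 and -3.49 ± 0.41 at E10.5. Whether the Lars2 difference shares a source with those of Gm42418 and AY036118 was not tested.

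The roof plate signature itself was not called between genotypes. None of the 7 roof plate genes passed in edgeR or DESeq2, and 2 had an unadjusted p under 0.05. However, Gdf7 passed in some alternatives, and with the replicate number as a block both Gdf7 and Wnt3a passed. Gdf7 was 12.9 and 21.3 CPM in controls and 3.27 and 7.71 CPM in Tbx1 null members (-1.63 ± 0.41, adjusted p = 0.226), the largest difference of the list, without overlap. It was called without control 1 (adjusted p = 0.00033), without Tbx1 null replicate 2 (7.35e-07) and without a filter on low counts (0.000257), but not without control 2 (0.337) or Tbx1 null replicate 1 (0.118). Colec12 differed by 0.07 ± 0.24, Lmx1a by -0.02 ± 0.27 and Wnt1 by 0.32 ± 0.25. Of 6 BMP ligands and 7 Wnt ligands none was called by edgeR, with 3 of each at an unadjusted p under 0.05. Of 10 neurogenesis genes none was called by edgeR or DESeq2 and 6 had an unadjusted p under 0.05. Neuronal markers in the same members summed to 172 and 479 CPM in controls and 222 and 503 CPM in Tbx1 null libraries, so that the groups overlapped.

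The genotype difference of members was set against that of dorsal progenitors in the same libraries, and 14 of 13046 genes (0.107%) passed the interaction test, 3 (0.023%) above and 11 (0.0843%) below 0, while 5.01% had an unadjusted p under 0.05. The count was 106, 38, 83 and 77 when control 1, control 2, Tbx1 null replicate 1 or 2 was left out and 2 with the cells of highest doublet score removed. Crabp1 (1.17 ± 0.19) and Rnd2, a small GTPase of newborn neurons (0.89 ± 0.13), were more raised in Tbx1 null members than in Tbx1 null dorsal progenitors. Foxj1 (-1.86 ± 0.32), Deup1 (-6.38 ± 1.14), Hmx1, Lix1 and Shisa8 were among the 11 with the opposite sign. Gpx3 was not among them (0.53 ± 0.17, adjusted p = 0.532). Deup1 was near the floor in dorsal progenitors, in at most 0.234% of thinned cells at E10.5, so the size of its difference is uncertain.

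At E9.5 each genotype had 1 library, and the values are given without a test. Among 2907 genes with at least 50 CPM, 6 (0.206%) were at least 2-fold higher and 12 (0.413%) at least 2-fold lower in the Tbx1 null members. Xist had 0 UMIs in the control members and 2655 in the Tbx1 null members, and in the E10.5 libraries it was at 289 to 603 CPM. The study did not evaluate the sex of the embryos, so sex and genotype cannot be told apart in the E9.5 libraries. The same E9.5 control library enters the stage comparison. Rpl29, at 121 and 614 CPM in control and Tbx1 null members, and the histone genes Hist1h2an (52.9 and 11.4 CPM) and Hist1h2ap (1185 and 507 CPM) belong to families with near-identical copies, so their values are uncertain. Hmx1 had 3 UMIs in each library. Crabp1 was 3000 and 2371 CPM, the reverse of its order at E10.5.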

How the data were processed

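The authors deposited, per library, a filtered gene by cell matrix of UMI counts made by 10x 3' sequencing with Cell Ranger 6.0.1 on mm10, per the labels. These counts are raw, with 32285 genes, no normalization and no pooling of libraries, and the authors' own clusters were not used here. Groups were taken from the sample titles. A cell was kept from 1000 detected genes upwards if its mitochondrial UMIs did not exceed 10%, and doublet scores were computed with Scrublet in scanpy 1.11.5, with the top 0.8% of barcodes per 1000 barcodes treated as doublets in an alternative only. The study's Wnt1-Cre driver, its sort and its pooled embryos limit what a library stands for.

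UMIs were summed per library and population, since cells are not replicates. Sums were tested with edgeR 4.0.16 (quasi-likelihood test, TMM, filterByExpr, Benjamini-Hochberg adjustment over all genes tested) in R 4.3.3. Differences between populations were tested as an interaction with the library as a block. Shares of cells were compared by exact permutation tests over libraries (scipy 1.17.1), and their intervals are exact binomial ones at 95% that cover counting error only. Ratios to dorsal progenitors used a pseudocount of 1 CPM and were not tested. For a gene with 0 UMIs in a group, a bound was set from 3 UMIs over that group. Unless full depth is stated, shares of cells with a gene were taken after thinning each cell to 5000 UMIs. Thinning left out 2 to 11 members per library. The classes by Otx2, Hox genes, Ttr, Deup1 or Ccno were counted at full depth. Library totals were 146254671 to 234844769 UMIs. The tests were also run on simulated counts, and those results are not given here.

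Genes were named from 36 gene lists, from the 10 largest called rises and falls of a test without overlap and with a mean of at least 10 CPM in 1 group, and, against dorsal progenitors, from the 25 highest and 10 lowest ratios. The members and the lists were chosen with earlier results of these data known, and a few list genes are not reported here. Alternatives were DESeq2 1.42.0, edgeR run with DESeq2 size factors or on all genes unfiltered, other cell filters and each library left out. Gene positions are those of GENCODE vM21. The E8.5 library entered no test and no comparison between libraries.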

Additional observations from a re-analysis of the deposited data

Results flagged for a closer look

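The genotype difference at E10.5 departed from that of dorsal progenitors of the same libraries for 14 genes, by edgeR's interaction test at an adjusted p under 0.05. As log2 differences of Tbx1 null against control in members minus the same in dorsal progenitors, the values given here were above 0 for Crabp1 (1.17) and Rnd2 (0.89). They were below 0 for Shisa8 (-3.54), a membrane protein gene, for Hmx1 (-6.85), Lix1 (-2.99), Hpgd (-2.0), E2f7 (-1.30), Mfap4 (-1.25), Dbh (-4.69) and Frzb (-3.49), and for the choroid and ciliary genes Ttr (-5.33), Foxj1 (-1.86) and Deup1 (-6.38). Ttr in dorsal progenitors was 36.7 CPM in Tbx1 null replicate 2 and at most 0.251 CPM in the other libraries. Its value in that replicate went with 50.6 CPM in mesenchyme, and the part of free RNA in it was not tested. The Hmx1 difference went with 6 and 9 control cells. Deup1 was found in at most 0.234% of thinned dorsal progenitors at E10.5, so the size of its difference is uncertain. Of the 14 differences, 2 were called once the cells of highest doublet score were removed.

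The E8.5 control library entered no test and no comparison with other libraries. In it 33 of 5874 kept cells met the rule, a share of 0.562% (exact binomial 95% interval 0.387 to 0.788). Colec12 was found in 33.3% of them and in 9.51% of dorsal progenitors at full depth, and Otx2 in 87.9% and 57.7%. Lmx1b ran the other way, in 9.09% against 13.7%, Metrnl was in 2 of 33 members, and Gdf7 and Bmp6 were in 0 of 33, for which the exact binomial upper limit of cells with a UMI, not of cells expressing the gene, is 10.6%.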

How the results depend on the processing

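The number of genotype calls at E10.5 (13) was 36 with DESeq2, 223 without a filter on low counts, 33 after thinning, 2 with all 6 libraries in the fit and 47 to 463 with 1 library left out. With a replicate block it was 691, Gdf7 and Wnt3a among them. The labels give the E10.5 libraries shared replicate numbers. With 2 pairs (correlation of deviations 0.26), it cannot be told whether they pair the samples. Neuronal marker sums were higher in replicate 2 of both genotypes (479 and 503 against 172 and 222 CPM). Surface epithelium sums were higher in control 2 and lower in Tbx1 null replicate 2 (190 and 158 against 178 and 176 CPM). The number of stage calls (1553) was 1011 after thinning, 363 in Tbx1 null libraries alone and 143 to 2834 with 1 library left out. The genotype by population calls (14) were 6 with DESeq2 size factors, 119 without a filter, 2 without the cells of highest doublet score and 38 to 106 with 1 library left out, and the stage by population calls (1742) 445 to 1743.

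Against all other kept cells 65 genes were 2-fold higher, and 25 were 2-fold lower with a pseudocount of 10 CPM. With that comparator the sign turned for H19 (-0.51), Pax3 (0.48), Olig3 (0.19) and Sox2 (0.98). The genotype difference in share turned to -0.749 percentage points among cells with Sox2 and without Prrx1 and Sox10 and spanned 0.50 to 2.38 with 1 library left out. The stage difference was 0.542 when cells were thinned before the rule, and -0.959 to 0.00732 with 1 library left out.

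The other reversals were of genes with no call and a value near 0. For the genotype effect, with 1 library left out, the ranges were -0.312 to 0.261 for Lmx1a (0.261 without control 2, 0.231 without Tbx1 null replicate 2), -0.152 to 0.274 for Colec12 (-0.0627 without control 1, -0.152 without Tbx1 null replicate 1), -0.555 to 0.193 for Lmx1b (0.193 without control 2, 0.0370 without Tbx1 null replicate 1) and -0.319 to 0.0549 for Metrnl (0.0549 without Tbx1 null replicate 2), and Lmx1a was 0.0174 without the doublet-scored cells and 0.146 with all libraries. For the stage effect they were -0.0612 to 0.225 for Wnt1 and -0.314 to 0.221 for Wnt3a. Wnt1 was -0.0305 without E10.5 control 1, -0.0612 without the E9.5 Tbx1 null library and -0.0556 in controls alone. Wnt3a was 0.0969 thinned, 0.0261 with at least 3 R-spondin UMIs, 0.0545 with Sox2, 0.221 without the E9.5 control, 0.112 without E10.5 control 2, 0.201 in Tbx1 null libraries alone and 0.00115 without a genotype term. Its stage by population difference was -0.216 to 0.0778 with 1 library left out, turning without the E9.5 control (0.0587), E10.5 control 1 (0.0233) and Tbx1 null replicate 1 (0.0778). The cause of these changes was not tested. A planned, stricter exclusion of other cell types is not reported here. The Sox2 requirement and the fits without each library for the shares were added after the data had been seen.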

Other observations

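Some measured groups did not enter the account above. Of 10 pan-neural progenitor genes 2 fell between E9.5 and E10.5, Sox1 among them by 1.22 ± 0.32 on the log2 scale, from 16.5 and 14.5 CPM to 2.55 to 9.26 CPM, while Sox2 was at 190 and 172 CPM and then at 167, 143, 179 and 208 CPM. Of 9 junction and epithelial genes 2 rose, namely Crb2, an apical polarity gene (0.91 ± 0.23), and Epcam, an epithelial adhesion gene (1.92 ± 0.54). Of 7 genes of FGF feedback edgeR and DESeq2 called 0 in the stage comparison, with 1 at an unadjusted p under 0.05. Of 9 p53 targets 2 rose, one of them Trp53inp1 (1.17 ± 0.32), and Aen fell by 0.71 ± 0.21 on the log2 scale. The calls left of these without the E9.5 control were 1 rise of a p53 target, and without the E9.5 Tbx1 null library 1 rise of a p53 target and 1 of a junction gene.

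Muscle markers summed to 6.73 to 88.9 CPM in members, with the high values in the second replicate of both E10.5 groups. Tagln, an actin-binding gene of smooth muscle, was 79.3 CPM in control 2 and 49.5 CPM in Tbx1 null replicate 2, against 5.16 and 6.72 CPM in the other E10.5 libraries. Nefm, a neurofilament gene, was 173 CPM in control 2 and at most 43.6 CPM in the other members.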
